A study of Mus musculus with 8 samples.

Results

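The genes described here are 10 core members of the Notch pathway: the receptors Notch1, Notch2, Notch3 and Notch4, the ligands Dll1, Dll3, Jag1 and Jag2, and the target genes Hes1 and Hey1. They were found by matching the Entrez identifiers of the count table to gene symbols, and all 10 were among its 21950 genes. Poly(A) RNA was compared between d6PGCLCs (4 pools) and E12.5 PGCs (4 pools). Pools came from independent experiments, with 1 library per pool. PGCs are the embryonic precursors of eggs and sperm, and PGCLCs are their counterparts made in culture from pluripotent cells. The d6PGCLCs came from a single female mouse iPSC line, BVSC-iPSC, which was made from adult tail tip fibroblasts and carries the Blimp1-Venus and Stella-ECFP reporters. They were collected after 6 days of PGCLC induction (day 8 of culture) that began in medium with BMP4, SCF, LIF and EGF, which gave way at day 6 of culture to one with SCF, LIF and EGF alone, and were sorted for both reporters. The E12.5 PGCs came from female gonads of inbred C57BL/6J fetuses at E12.5 and were sorted for SSEA1 and integrin β3. No further allele or agent is stated for them. The paper cites transcriptome work that likens d6PGCLCs to migrating PGCs, a stage earlier than E12.5. Cell origin, developmental stage, genetic background, culture and sorting gate therefore all differ between the groups and cannot be told apart. In such bulk libraries, fewer cells that express a gene and less RNA per cell cannot be told apart either.

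Notch receptors are single-pass membrane proteins that are activated by ligands of the Delta-like and Jagged families on a neighbouring cell. Pulling by the ligand-bearing cell exposes the receptor to ADAM proteases and then to gamma-secretase, and the freed intracellular domain enters the nucleus, where it joins RBPJ and a Mastermind protein to switch on genes such as those of the Hes and Hey families. In the fetal gonad the pathway is known for signalling between germ cells and the somatic cells around them, and in the ovary for the formation of primordial follicles.

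The promoters are shown for the 3 members with the largest fold changes in the comparison below, because these are the sequences of the genes that set the groups apart most. Windows of 300 bases reached from 250 bases before to 50 after an annotated start. They were found in RefSeq (GRCm38.p6) for 8 of the 10 members, all but Hes1 and Hey1. Each sequence below is the part upstream of the start site, read 5′ to 3′ on the strand of the gene, with each CG dinucleotide in capitals.
Dll1 (chr17:15376933-15377182, minus strand): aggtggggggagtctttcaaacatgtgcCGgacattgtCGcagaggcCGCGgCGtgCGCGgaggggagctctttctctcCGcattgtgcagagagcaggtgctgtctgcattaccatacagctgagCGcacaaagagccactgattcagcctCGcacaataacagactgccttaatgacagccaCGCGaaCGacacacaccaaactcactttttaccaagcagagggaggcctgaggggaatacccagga
Jag1 (chr2:137116521-137116770, minus strand): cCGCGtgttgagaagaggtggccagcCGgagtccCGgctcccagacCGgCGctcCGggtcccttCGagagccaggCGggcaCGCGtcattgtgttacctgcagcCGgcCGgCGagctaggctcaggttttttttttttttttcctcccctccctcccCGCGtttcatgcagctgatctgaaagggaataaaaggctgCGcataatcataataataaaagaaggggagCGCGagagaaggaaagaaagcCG
Notch3 (chr17:32166897-32167140, minus strand): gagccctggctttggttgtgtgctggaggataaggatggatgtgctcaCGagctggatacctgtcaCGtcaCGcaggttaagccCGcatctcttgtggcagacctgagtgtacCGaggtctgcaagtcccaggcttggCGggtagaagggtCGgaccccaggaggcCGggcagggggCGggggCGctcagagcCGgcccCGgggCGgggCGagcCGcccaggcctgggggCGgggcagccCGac
In their full windows Dll1 had 15 CG dinucleotides, Jag1 22 and Notch3 25, against a median of 7 over 32851 windows of the same length. A second annotated start of Dll1 had 24. Of the other members, Jag2 had 63, Notch2 41, Notch1 23, Dll3 11 and Notch4 5, so that only the Notch4 window was below the median. The windows were also searched on both strands for TGGGAA, the core letters bound by RBPJ, for the N box CACNAG and for the E box CACGTG, both bound by Hes and Hey proteins. TGGGAA was in none of the 9 windows of these 8 members, and 25.6% of all windows held it. The targets Hes1 and Hey1 had no window and were not searched. CACNAG was in the windows of Notch1 (3 matches), Notch3 (2 matches), Notch2 and Dll1 (1 match each), and 42.5% of all windows held it. CACGTG was in none, against 7.2% of all windows. A match is a description of the letters only, and its absence says no more than that they are not in this window.

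The libraries held between 7991437 and 12024841 counted reads, so that 3 counts, used as the detection limit of a library, equal 0.249 to 0.383 CPM (read counts scaled by TMM-adjusted library totals). Such limits cover counting error only. All 10 germ cell markers examined, among them Prdm1, Dppa3, Tfap2c and Ddx4, were detected in both groups, although Prdm1 and Dppa3 drive the reporters on which the d6PGCLCs were sorted. Their levels differed, with 4 higher and 4 lower in d6PGCLCs by edgeR, and the later germ cell genes differed most, Ddx4 at 35.5 and 760 CPM (log2 fold change -4.42) and Dazl at 37.7 and 1262 CPM (-5.07) in d6PGCLCs and E12.5 PGCs. Replicate 4 of the E12.5 PGCs held 99 counts on Y-linked genes, where the other 7 libraries held 0, which goes against its label as female. The heat shock gene Hspa1a was at 4.42 to 144 CPM in the E12.5 PGC libraries and at 0.305 to 0.747 CPM in the d6PGCLC libraries, so that it set the groups apart, and it was highest in E12.5 PGC replicate 2, where the other libraries of this group had at most 20.3 CPM. Its part in the results was not tested. Results are therefore also given without these libraries.

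Of the 10 members, 2 were higher in d6PGCLCs (Notch3 and Hey1) and 4 were lower (Dll1, Jag1, Jag2 and Hes1) at an adjusted p of at most 0.05 in edgeR's quasi-likelihood test, while 4 did not pass (Notch1, Notch2, Notch4 and Dll3). Over all genes 31.5% passed, 16.1% higher and 15.4% lower. Among the 11487 genes with a mean of at least 1 CPM, as all 10 members have, it was 53.6%, 28.1% higher and 25.6% lower, so that the number of members called was close to this background. 3 of the 4 ligands and none of the 4 receptors were among the lower genes. In 5 members (Notch3, Dll1, Jag1, Jag2 and Hes1) the CPM of the groups did not overlap, which was so for 30.2% of all genes and 51.1% of those with at least 1 CPM. The median log2 fold change of the 10 members was -0.34, compared with 0 over all genes and 0.01 over genes with at least 1 CPM. At the study's threshold of an absolute log2 fold change of 2, no member was called by edgeR or by DESeq2, although 7 had an unadjusted p under 0.05, and 6.62% of all genes were called, 3.24% higher and 3.37% lower. Dll1 came closest, and it passed that threshold when d6PGCLC replicate 1 was left out, with a log2 fold change of -2.22. At an absolute log2 fold change of 1, 1 member was higher and 3 were lower, against 8% and 6.75% of all genes. Neither fold-change threshold was counted apart among genes with at least 1 CPM, so these shares of all genes are not matched for level.

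**Figure D1:**
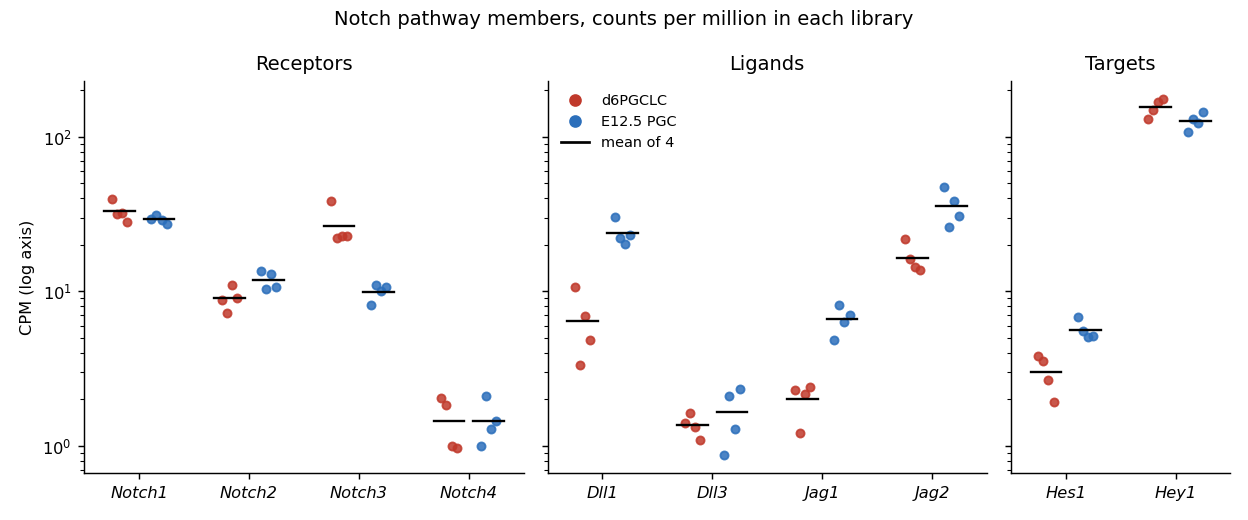
CPM of the 10 members in each library on a log axis, with receptors, ligands and targets in separate panels, 1 point per library and a black bar at the mean of 4 libraries. The d6PGCLC libraries (red) lie above the E12.5 PGC libraries (blue) for Notch3 and below them for Dll1, Jag1, Jag2 and Hes1, while the points overlap for the other 5.

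Among the receptors, Notch3 was higher in d6PGCLCs by 2.66-fold and no other receptor passed the test. Notch3 is the receptor best known from the smooth muscle and pericytes of blood vessels. It was at 38.4, 22.2, 22.7 and 22.8 CPM in d6PGCLC replicates 1 to 4 and at 8.11, 11.05, 10.1 and 10.7 CPM in E12.5 PGC replicates 1 to 4. Every d6PGCLC library was thus above every E12.5 PGC library, and replicate 1 of the d6PGCLCs was well above the other 3. The log2 fold change was 1.40 (SE 0.19, edgeR adjusted p = 3.66e-06), and the two-sided exact permutation p was 0.0286, the smallest that 4 against 4 libraries can give. Without d6PGCLC replicate 1 the log2 fold change was 1.17 (edgeR adjusted p = 4.47e-07). Notch3 lies at chr17:32120820-32166896 on the minus strand (GRCm38), and an antisense gene, Gm17276, overlaps it. Overlap here and below is between whole gene spans, and whether it reaches the counted exons was not tested. The sources used here do not state whether the counting used strand, so reads from any shared exon bases cannot be told apart.

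Notch3 is also used by mesenchymal cells, and the summed CPM of 10 markers of gonadal interstitial and mesenchymal cells was 0.913 to 24.5 in the d6PGCLC libraries and 1.66 to 7.26 in those of E12.5 PGCs. Of these markers 5 of 10 exceeded 3 counts in some d6PGCLC library and 8 of 10 in some E12.5 PGC library, and Tcf21 was at 0 in all d6PGCLC libraries. The sum was highest in d6PGCLC replicate 4, and it was 4.34 CPM in replicate 1, where Notch3 was highest. Of the 10 markers, 1 was higher in d6PGCLCs and 2 were lower. The higher one was Col1a1, a fibrillar collagen, with 3 to 97 counts in the d6PGCLC libraries and 1 to 4 in those of E12.5 PGCs (4.16 ± 5.31 and 0.205 ± 0.149 CPM, SD, n = 4, log2 fold change 4.24, edgeR adjusted p = 0.000719). Pdgfra was among the lower ones, with at most 1 count in any d6PGCLC library. In d6PGCLC replicates 1 to 4 the summed CPM of 5 epiblast-like cell markers was 35.0, 30.8, 22.8 and 20.4. It was 20.8 to 25.2 in the E12.5 PGC libraries. This sum was thus highest in d6PGCLC replicate 1, as Notch3 was. Of these markers 1 was higher in d6PGCLCs (Dnmt3b, log2 fold change 0.94) and 2 were lower (Fgf5, -1.49, and Pou3f1, -1.48). Most of the sum in d6PGCLCs was Dnmt3b, at a mean of 20.4 CPM, where E12.5 PGCs had 10.6 CPM. Of 8 blood cell markers 1 was higher (Csf1r, 12 to 24 counts against 0) and 2 were lower. The part of any of these cell types in the level of Notch3 was not tested.

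Notch1, the receptor with the broadest roles in development, was the most abundant receptor per length in both groups. It had 39.8, 31.6, 32.1 and 28.1 CPM in the d6PGCLC libraries and 29.4, 31.4, 29.0 and 27.2 CPM in the E12.5 PGC libraries, with a log2 fold change of 0.17 (SE 0.13, edgeR adjusted p = 0.425). The ranges overlapped, with d6PGCLC replicate 1 well above the other libraries of both groups. The noncoding genes 0610009E02Rik and Gm13568 overlap Notch1 on the other strand, and the pseudogene Gm20462 overlaps Notch4 in the same way, so the limit on strand holds for both.
Notch2, which is known for its part in granulosa cells of the follicle, had 8.81, 7.23, 11.04 and 9.09 CPM in the d6PGCLC libraries. In the E12.5 PGC libraries it had 13.5, 10.3, 13.0 and 10.7 CPM. In all d6PGCLC libraries but replicate 3 it was below all E12.5 PGC libraries. However, the log2 fold change of -0.38 (SE 0.18, edgeR adjusted p = 0.1296) did not pass the test. The annotated genes Gm42819 and Gm42820 overlap Notch2 on the same strand, so even counting by strand could not separate reads from shared bases.
Notch4, known mainly from endothelium, was low in both groups. It had 2.04, 1.83, 0.996 and 0.970 CPM in the d6PGCLC libraries and 0.998, 2.10, 1.29 and 1.44 CPM in the E12.5 PGC libraries. With 8 to 20 counts per library, its log2 fold change of -0.02 had an SE of 0.38 (edgeR adjusted p = 1), so its value is uncertain. The size of difference that could be detected at these counts was not tested.

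Of the 4 ligands, Dll1, Jag1 and Jag2 were lower in d6PGCLCs, and Dll3 did not pass the test. Dll1, a Delta-like ligand that activates receptors on neighbouring cells, differed most. It had 10.7, 3.36, 6.89 and 4.85 CPM in the d6PGCLC libraries and 30.3, 22.0, 20.4 and 23.1 CPM in the E12.5 PGC libraries. The groups did not overlap, and replicate 1 was the highest library in each of them. E12.5 PGCs had 3.71-fold more, with a log2 fold change of -1.90 (SE 0.24, edgeR adjusted p = 2.2e-06). Dll1 lies at chr17:15367354-15376932 on the minus strand, and a noncoding gene on the other strand, A930024N18Rik, overlaps it, so the limit on strand holds here too.

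Jag1, a Jagged ligand with wide roles in vessels and epithelia, had 2.30, 1.22, 2.16 and 2.42 CPM in the d6PGCLC libraries. It had 4.87, 8.21, 6.36 and 7.04 CPM in the E12.5 PGC libraries. The groups were well apart, with E12.5 PGCs 3.27-fold higher and a log2 fold change of -1.72 (SE 0.27, edgeR adjusted p = 2.62e-05). Jag1 lies at chr2:137081451-137116520, and no annotated gene overlaps it.
Jag2, the other Jagged ligand, had 21.8, 16.2, 14.4 and 13.7 CPM in the d6PGCLC libraries. It had 47.4, 26.1, 38.6 and 30.6 CPM in the E12.5 PGC libraries. E12.5 PGCs were 2.16-fold higher, again without overlap, and the log2 fold change was -1.11 (SE 0.18, edgeR adjusted p = 4.79e-05). Without E12.5 PGC replicate 1, the highest library, it was -0.95 and still passed.
Dll3, a Delta-like protein that acts inside the cell that makes it rather than as an activating ligand, was low in both groups. It had 1.40, 1.63, 1.33 and 1.09 CPM in the d6PGCLC libraries and 0.873, 2.10, 1.29 and 2.35 CPM in the E12.5 PGC libraries, that is 7 to 26 counts per library. The E12.5 PGC values spanned the whole d6PGCLC range, and the log2 fold change was -0.29 (SE 0.37, edgeR adjusted p = 0.697).

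The exact permutation p was 0.0286 for Dll1, Jag1 and Jag2 alike. Markers of 2 other cell types differed in the same direction as these ligands. The summed CPM of 11 markers of gonadal supporting cells was 2.66 to 8.30 in the d6PGCLC libraries and 12.46 to 21.7 in the E12.5 PGC libraries, and 5 of the 11 were lower in d6PGCLCs, namely Wt1, Gata4, Fst, Wnt4 and Irx3. Of these markers 2 of 11 exceeded 3 counts in some d6PGCLC library and 7 of 11 in some E12.5 PGC library. Their levels were low, with 5 to 16 counts of Wt1 and 7 to 12 of Gata4 per E12.5 PGC library and at most 2 of each in d6PGCLC libraries, and most of the sum was Irx3 (10.6 CPM in E12.5 PGCs). Cbr2 was at 0 in every library. The sum was highest in E12.5 PGC replicate 2, the library in which Jag1 was highest of its group, whereas Dll1 and Jag2 were highest in replicate 1. Without replicate 2 the log2 fold changes were -1.93 for Dll1, -1.60 for Jag1 and -1.23 for Jag2, and all 3 still passed the edgeR test. A list of 8 markers was drawn up for mesoderm of embryoid bodies, the cell aggregates in which PGCLCs form. The summed CPM of these markers was 2.91 to 4.78 in the d6PGCLC libraries and 10.02 to 13.7 in the E12.5 PGC libraries. Of the 8, 5 were lower in d6PGCLCs and 1 (Tbx6) was higher. Of these markers 4 of 8 exceeded 3 counts in some library of each group, Msgn1 was at 0 in every library, and most of the E12.5 PGC sum was Hand1 (0.548 and 8.26 CPM, log2 fold change -3.92). This sum was highest in E12.5 PGC replicate 1, as Dll1 and Jag2 were. The part of either cell type in the ligand levels was not tested.

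**Figure D2:**
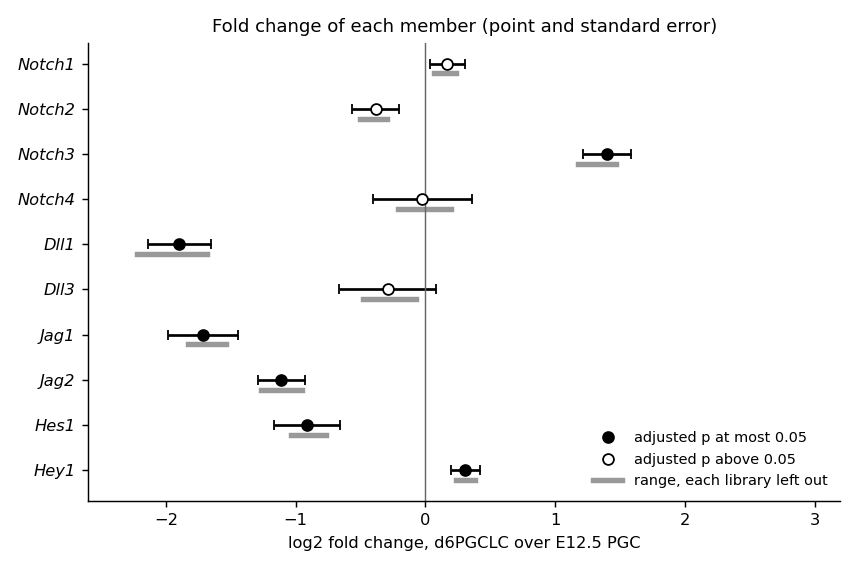
Log2 fold change (d6PGCLC over E12.5 PGC) of each member from the edgeR fit, with bars of 1 standard error, filled where the adjusted p was at most 0.05, and a grey line for the range when each library was left out in turn. Notch3 and Hey1 lie to the right of 0 and Dll1, Jag1, Jag2 and Hes1 to the left, and only the line of Notch4 crosses 0.

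Of the targets, Hes1 was lower in d6PGCLCs and Hey1 was higher, the latter by a small step that did not pass under every setting. Hes1 is a repressor of the bHLH family and the textbook readout of Notch activity. It had 3.83, 3.56, 2.66 and 1.94 CPM in the d6PGCLC libraries and 6.86, 5.58, 5.07 and 5.15 CPM in the E12.5 PGC libraries. All d6PGCLC libraries were below all E12.5 PGC libraries, by 1.89-fold in the means, and the log2 fold change was -0.91 (SE 0.26, edgeR adjusted p = 0.00741, exact permutation p = 0.0286). Its counts were 16 to 57 per library, and leaving out each library in turn gave log2 fold changes of -1.04 to -0.76, with an adjusted p of at most 0.0282. Hes1 lies at chr16:30065357-30067796.

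Hey1, a related repressor known from Notch signalling in endothelium and heart, was by far the most abundant of the 10 members. It had 131, 149, 169 and 176 CPM in the d6PGCLC libraries and 107, 131, 122 and 145 CPM in the E12.5 PGC libraries. The means were 156 ± 20.2 and 126 ± 15.7 CPM (SD, n = 4), but the ranges overlapped. The log2 fold change was 0.31 (SE 0.11, edgeR adjusted p = 0.0347), while the two-sided exact permutation test of the same libraries gave p = 0.0571. The edgeR adjusted p was 0.0688 with library size alone, 0.0610 with upper-quartile scaling and 0.113 with a correction for exon length. It was 0.109 without d6PGCLC replicate 3, 0.131 without d6PGCLC replicate 4, 0.127 without E12.5 PGC replicate 1 and 0.0975 without E12.5 PGC replicate 3. Hey1 lies at chr3:8663359-8667038, and no annotated gene overlaps it. Hes1 made up 2.89% of the summed RPKM of both targets in d6PGCLCs (1.62 to 4.18%) and 6.40% in E12.5 PGCs (5.05 to 8.73%), without overlap.

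Hey1 and Notch4 are also genes of endothelium. The summed CPM of 10 endothelial markers was 54.5 to 72.9 in the d6PGCLC libraries and 37.2 to 64.4 in the E12.5 PGC libraries. Cdh5 (log2 fold change 1.39), Flt1 (3.58) and Cldn5 (0.85) were higher in d6PGCLCs and none of the 10 was lower. Of these markers 7 of 10 exceeded 3 counts in some d6PGCLC library and 9 of 10 in some E12.5 PGC library. Kdr had at most 2 counts in any d6PGCLC library and 6 in any E12.5 PGC library, and Emcn was at 0 in all d6PGCLC libraries. Among the d6PGCLC libraries the sum and Hey1 were both lowest in replicate 1 and highest in replicate 4. In E12.5 PGCs both were lowest in replicate 1, but the sum was highest in replicate 2 and Hey1 in replicate 4. The part of endothelial cells in the levels of Hey1 and Notch4 was not tested.

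Replicate 1 of the d6PGCLCs was the highest of its group for 6 of the 10 members (Notch1, Notch3, Notch4, Dll1, Jag2 and Hes1). It was also the highest for 33.0% of the 11487 genes with at least 1 CPM. Without it, the same 6 members were called, and the log2 fold changes of Dll1 (-2.22), Jag1 (-1.78), Jag2 (-1.27) and Hes1 (-1.04) were larger in size. Without E12.5 PGC replicate 4, the library with Y-linked counts, the log2 fold changes were 1.44 for Notch3, -1.91 for Dll1, -1.68 for Jag1, -1.18 for Jag2, -0.96 for Hes1 and 0.38 for Hey1, and all 6 passed the edgeR test. Without E12.5 PGC replicate 2 all 6 passed as well.

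To compare levels between genes, counts were divided by the exonic length given in the table, as RPKM (CPM per kilobase). Hey1 was first in both groups, at 64.9 ± 8.42 RPKM in d6PGCLCs and 52.4 ± 6.54 RPKM in E12.5 PGCs (SD, n = 4), above 92.3% and 90.1% of the genes with a count in any library. Notch1 was second, at 23.6 ± 3.55 and 21.0 ± 1.23 RPKM. In d6PGCLCs there followed Notch2 (4.10 RPKM), Jag2 (3.25 RPKM), Notch3 (2.86 RPKM), Hes1 (1.86 RPKM), Dll1 (1.67 RPKM), Notch4 (0.772 RPKM), Dll3 (0.540 RPKM) and Jag1 (0.310 RPKM). In the means of E12.5 PGCs Jag2 (7.01 RPKM) and Dll1 (6.19 RPKM) stood above Notch2 (5.38 RPKM), and Hes1 (3.52 RPKM), Notch3 (1.08 RPKM), Jag1 (1.01 RPKM), Notch4 (0.771 RPKM) and Dll3 (0.656 RPKM) stood below it. Several neighbours did not differ beyond their spread. Jag2 and Notch3 overlapped in d6PGCLCs (2.69 to 4.28 and 2.40 to 4.15 RPKM), as did Hes1 and Dll1 (1.204 to 2.38 and 0.869 to 2.77 RPKM), and in E12.5 PGCs Jag2 and Dll1 overlapped (5.12 to 9.31 and 5.27 to 7.84 RPKM). Notch2 (4.68 to 6.11 RPKM) overlapped both of them in E12.5 PGCs, and in d6PGCLCs Notch2 and Jag2 overlapped as well (3.28 to 5.005 and 2.69 to 4.28 RPKM), so the order of these neighbours is not beyond their spread in either group.

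These levels carry a limit, because the authors counted a single isoform chosen at random for each gene. For Notch1 the counted exons came to 1393 bp, 14.7% of the longest annotated coding transcript. For Notch2 they came to 2205 bp (21.0%) and for Notch4 to 1892 bp (28.7%). For the other 7 members they came to between 96.4% and 116.4%. The RPKM of Notch1, Notch2 and Notch4 therefore rest on a part of the transcript, whereas fold changes between groups use the same exons in all libraries.

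Summed over the 4 ligands, the level was 5.77 ± 1.4998 RPKM in d6PGCLCs and 14.9 ± 2.33 RPKM in E12.5 PGCs (SD, n = 4). The highest d6PGCLC library had 7.96 RPKM and the lowest E12.5 PGC library 12.9 RPKM, so the groups did not overlap. Summed over the 4 receptors, it was 31.4 ± 4.57 and 28.2 ± 1.39 RPKM, and the ranges of 27.3 to 37.8 and 26.2 to 29.5 RPKM overlapped. Within the receptors, Notch1 made up 75.3 ± 1.52% in d6PGCLCs and 74.4 ± 1.38% in E12.5 PGCs, while Notch3 made up 9.02 ± 1.38% and 3.82 ± 0.562% and Notch2 13.2 ± 2.78% and 19.1 ± 2.48%. Within the ligands, Jag2 made up 56.8 ± 5.87% in d6PGCLCs and 46.6 ± 6.33% in E12.5 PGCs, with overlapping ranges. Dll1 made up 27.9 ± 7.602% and 41.6 ± 3.31%, and its ranges of 17.8 to 34.8% and 36.7 to 44.1% did not overlap. Jag1 made up 5.53 ± 1.79% and 7.08 ± 2.35%, and Dll3 9.74 ± 2.59% and 4.65 ± 2.31%. These shares are descriptions and were not tested.

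**Figure D3:**
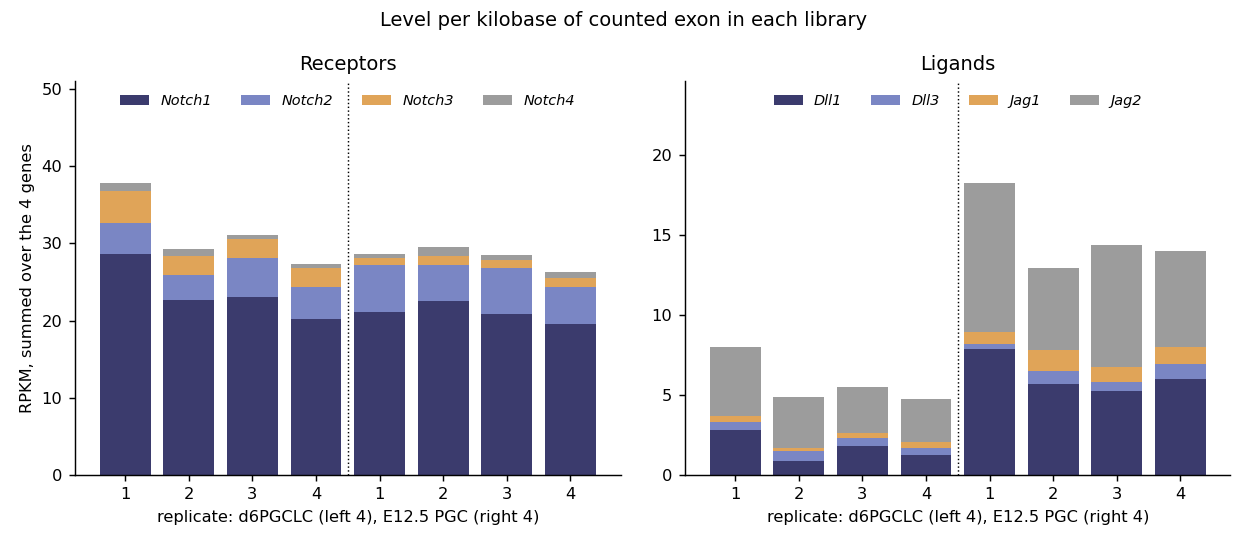
Stacked bars of RPKM for the 4 receptors (left) and the 4 ligands (right) in each library, with d6PGCLC replicates 1 to 4 to the left of the dotted line and E12.5 PGC replicates 1 to 4 to the right. The summed receptor level overlaps between the groups (27.3 to 37.8 and 26.2 to 29.5 RPKM), and the summed ligand level does not (at most 7.96 against at least 12.9 RPKM).

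A further 90 genes of the pathway were listed by role, and 85 of them were in the table. Of these, 19 were higher in d6PGCLCs, 24 were lower and 42 were not called, at a median log2 fold change of -0.08, or -0.06 when 2 genes at the limit in 1 group were set to their bound and 3 at the limit in both were left out. Of the 85, 72 had a mean of at least 1 CPM, the class of genes in which 53.6% were called. The lists below are described by their counts and medians only.

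Of the 8 other ligands, 2 were higher and none was lower in d6PGCLCs, and their median log2 fold change was 0.69, but only 3 of the 8 had a mean of at least 1 CPM. Dner, a noncanonical ligand of neural tissue, had 6.77 ± 2.12 CPM (SD, n = 4) in d6PGCLCs but 1.94 ± 0.315 CPM in E12.5 PGCs, with a log2 fold change of 1.81 (SE 0.28, edgeR adjusted p = 1.79e-05). Mfap5, a microfibril protein that binds Jagged ligands, had 2.05 ± 0.609 and 0.842 ± 0.311 CPM (log2 fold change 1.28, edgeR adjusted p = 0.0139). The call of Mfap5 was lost without d6PGCLC replicate 2 (adjusted p = 0.0578) or E12.5 PGC replicate 3 (adjusted p = 0.0652). The count of none lower became 1 without d6PGCLC replicate 3. Dll4, the Delta-like ligand of endothelium, was at 0.210 and 0.246 CPM, below the limit of 3 counts.

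Of 9 enzymes that add sugars to the receptors, 1 was higher and 1 was lower. The higher count was 0 without d6PGCLC replicate 2 or 3 or without E12.5 PGC replicate 2 or 3, and the lower count was 2 without d6PGCLC replicate 1 and 0 with either filter on low counts. Gxylt2, a xylosyltransferase, had 0, 1, 0 and 0 counts in the d6PGCLC libraries and 7 to 12 counts in the E12.5 PGC libraries, and was at least 2.79-fold lower in d6PGCLCs against the limit of 3 counts per library. Poglut1, the O-glucosyltransferase with the highest RPKM of this list, did not pass (log2 fold change 0.16, edgeR adjusted p = 0.293). Of 9 genes for cleavage, 1 was higher and 2 were lower. The higher count was 2 without d6PGCLC replicate 2, E12.5 PGC replicate 1 or E12.5 PGC replicate 2, and also with the likelihood ratio test, the CPM filter and the length offset. Adam10, the main protease for ligand-induced cleavage, had 26.7 ± 3.06 CPM (SD, n = 4) in d6PGCLCs but 70.4 ± 13.9 CPM in E12.5 PGCs, with a log2 fold change of -1.40 (SE 0.14, edgeR adjusted p = 6.44e-08). Adam17, a related protease, was the most abundant of the list by RPKM and differed the other way, with 214 ± 17.6 and 144 ± 6.31 CPM (log2 fold change 0.57, edgeR adjusted p = 2.4e-05).

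Of 6 genes for ligand endocytosis, 2 were higher and 1 was lower, or 2 lower without d6PGCLC replicate 1. Neurl1b, a ubiquitin ligase that acts on Delta-like ligands, had a log2 fold change of 1.22 (SE 0.28, edgeR adjusted p = 0.00156), and Epn1, an epsin with the highest RPKM of the list, had 0.10 (adjusted p = 0.442). Of 10 genes for receptor turnover and inhibition, 4 were higher and 2 were lower. The lower count was 1 without d6PGCLC replicate 2 and 3 with library size alone, upper-quartile scaling, either filter, the length offset or DESeq2. Deltex genes encode ubiquitin ligases. Dtx3 had 29.2 ± 7.72 CPM in d6PGCLCs but 5.61 ± 0.371 CPM in E12.5 PGCs (log2 fold change 2.38, edgeR adjusted p = 2.29e-09), Dtx4 had 11.7 ± 3.38 and 2.28 ± 1.09 CPM (2.35, adjusted p = 1.29e-06), and Dtx1 had 2.51 ± 0.674 and 0.871 ± 0.334 CPM (1.52, adjusted p = 0.00270). Dtx2, the most abundant Deltex gene of the list and chosen for naming after its values were seen, did not pass, with 83.2 ± 3.81 and 97.8 ± 10.5 CPM (-0.23, adjusted p = 0.0874). It was lower with library size alone, upper-quartile scaling, either filter, the length offset, DESeq2 and without E12.5 PGC replicate 2 (adjusted p of 0.0193 to 0.0431). Nedd4, the ubiquitin ligase with the highest RPKM of the list, had a log2 fold change of 0.07 (adjusted p = 0.831).

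In the nucleus, 2 of 9 genes of the activating complex were higher and 5 were lower. Rbpj, the DNA-binding partner of all 4 receptors, was higher (146 ± 28.9 and 87.4 ± 12.9 CPM, SD, n = 4, log2 fold change 0.74, edgeR adjusted p = 8.48e-05). Of the Mastermind coactivators, Maml2 was lower (1.38 ± 0.544 and 5.48 ± 1.29 CPM, log2 fold change -2.02, edgeR adjusted p = 2.21e-05), Maml1 was lower (-0.57) and Maml3 did not pass (0.40, adjusted p = 0.329). Kat2a, the acetyltransferase with the highest RPKM of the list, was lower by a smaller step (-0.32, adjusted p = 0.00574). Of 17 corepressors, 5 were higher and 5 were lower. Tle3, a Groucho-type corepressor of Hes proteins, showed the largest difference of the list, at 137 ± 27.6 CPM in d6PGCLCs but 17.9 ± 3.44 CPM in E12.5 PGCs (log2 fold change 2.94, SE 0.15, edgeR adjusted p = 4.27e-12). L3mbtl3, which binds RBPJ, had a log2 fold change of 2.10 (adjusted p = 0.000628). Kyat1, which had 1.57 (adjusted p = 1.73e-09), is a kynurenine aminotransferase and no corepressor, although it stood on the list, and without it 4 of 16 were higher and 5 were lower, and 18 of all 84 other pathway genes were higher. Tle5, the list's most abundant gene by RPKM, had 0.14 (adjusted p = 0.368). Rbpj, Maml1 and Maml3 were chosen for naming after their values were seen.

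Of the 10 other Hes and Hey genes and their bHLH relatives, 1 was higher and 3 were lower, and Heyl had no count in any library. Bhlhe40, a repressor of the same superfamily that also responds to hypoxia and the clock, was higher with a log2 fold change of 4.38 (SE 0.41, edgeR adjusted p = 2.27e-08), but its d6PGCLC libraries varied widely, with 76.7 ± 60.3 CPM (SD, n = 4) where E12.5 PGCs had 3.66 ± 0.847 CPM. Without d6PGCLC replicate 1 its log2 fold change was 3.72. Hes3 was lower (1.10 ± 0.890 and 2.91 ± 0.842 CPM, log2 fold change -1.38, edgeR adjusted p = 0.0176), and that call was lost without d6PGCLC replicate 2 (adjusted p = 0.0608) or E12.5 PGC replicate 4 (adjusted p = 0.0587). Without either of these libraries 1 gene of the list was lower. Hes6 (-0.73, adjusted p = 0.00114) and Hes5 (-0.83, adjusted p = 0.0463) were the others that were lower. The groups overlapped for both Hes3 and Hes5. The call of Hes5 was lost when any library other than d6PGCLC replicate 3 or E12.5 PGC replicate 1 was left out (edgeR adjusted p of 0.0530 to 0.254).

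Of 9 further known targets, 2 were higher and 6 were lower, and their median was -0.63 on the log2 scale. Ccnd1, which encodes cyclin D1, had 25.5 ± 8.58 CPM in E12.5 PGCs but 6.71 ± 7.22 CPM in d6PGCLCs (log2 fold change -1.92, SE 0.46, edgeR adjusted p = 0.00236), and with DESeq2 its adjusted p was 0.0574. The d6PGCLC replicates held 7, 13, 101 and 134 counts of Ccnd1, and without replicate 4 its log2 fold change was -2.74. Snai1 (-2.32, adjusted p = 0.00327) and Snai2 (-1.47, adjusted p = 0.00846), repressors linked to epithelial-to-mesenchymal transition, were lower at low levels of at most 1.78 CPM in the mean. Snai1 was highest in E12.5 PGC replicate 2, and without that library its log2 fold change was -1.66 (edgeR adjusted p = 0.0324). Dtx1, which is on this list too, was higher, and so was Cdkn1a (0.55), the gene of the cell cycle inhibitor p21. Nrarp, a feedback inhibitor that is induced by Notch, was lower (log2 fold change -0.63, edgeR adjusted p = 0.0201), a call that was lost without d6PGCLC replicate 2 (adjusted p = 0.0653) or E12.5 PGC replicate 2 (adjusted p = 0.0862). Id3, the most abundant of the list by RPKM, was lower as well (-0.56, adjusted p = 0.00565). Hes5, Hes6, Nrarp and Cdkn1a were chosen for naming after their values were seen.

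**Figure D4:**
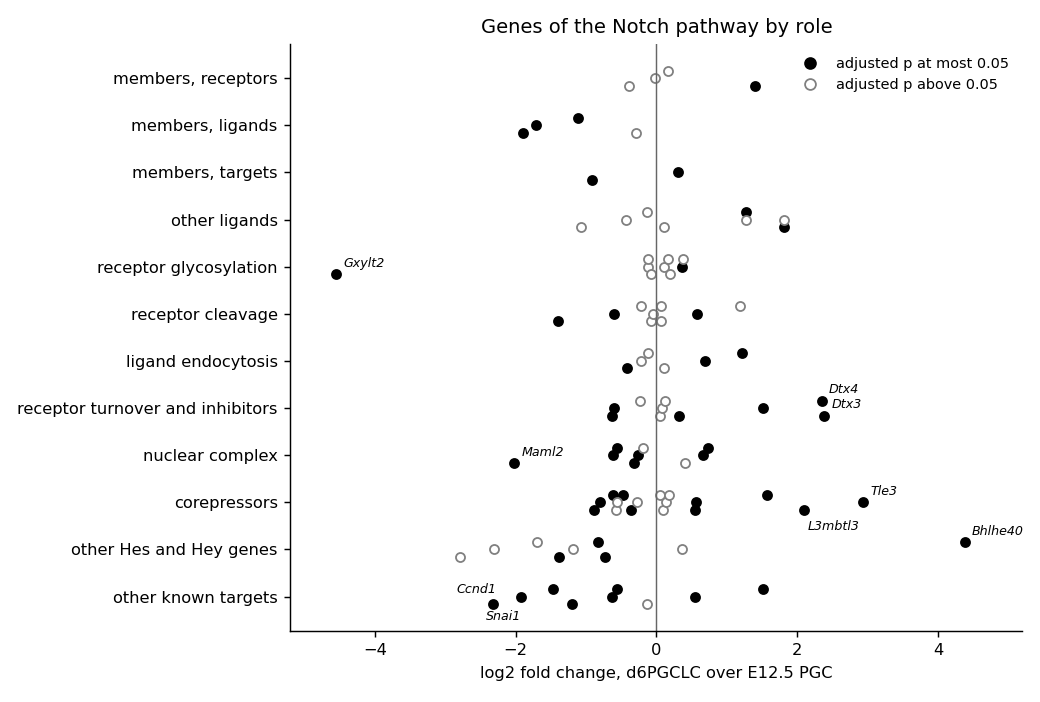
Log2 fold change (d6PGCLC over E12.5 PGC) of the 10 members and of the other pathway genes with counts, 1 row per list, filled where the edgeR adjusted p was at most 0.05. The 4 member ligands lie left of 0 and Dtx3 and Dtx4 lie at 2.38 and 2.35 in the row of receptor turnover, while the point of Gxylt2 is a fitted value for a gene at the limit of detection in d6PGCLCs.

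The genes whose level followed that of Hey1 most closely over the 8 libraries were Fbxo22 (Pearson r = 0.983 of log2(CPM + 0.1)), Idh3b (r = 0.980) and Rnf25 (r = 0.979), out of 8191 genes with a mean of at least 10 CPM. Points of the same group share their cell source, and the 3 genes were the highest of many compared, so the correlations are a description only.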

How the data were processed

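Libraries were made from d6PGCLCs (4 pools) and E12.5 PGCs (4 pools). The values deposited by the authors are read counts per gene that were not normalized. Single-end reads of stranded poly(A) libraries were aligned with STAR to GRCm38 (mm10) plus ERCC sequences. The authors drew 1 isoform per gene at random, dropped at random genes whose promoters overlapped, and counted uniquely mapped exonic reads with QuasR. Reads that fit several places were thus not counted. The deposited table also gives the exonic length of the chosen isoform. Of 21950 Entrez identifiers, 21907 matched RefSeq genes of GRCm38.

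Counts of all genes were fitted with edgeR 4.0.16 in R 4.3.3 (TMM, glmQLFit and glmQLFTest, prior count 0.125, cell type as the only term, no filter), with Benjamini-Hochberg adjustment over all 21950 genes. The study itself used a likelihood ratio test. Calls were made at an adjusted p of at most 0.05, and also with the log2 fold change at or beyond 1 or 2 in either direction. The SE was taken from the inverse information scaled by the posterior variance of the fit. CPM used TMM-scaled totals, and RPKM is CPM per kilobase of the table's exonic length. Exact permutation tests were two-sided, on the mean of log2(CPM + 0.1) over 70 splits. Libraries of the same group all differed by more than counting noise (chi-square divided by its degrees of freedom, 3.35 to 22.1). With 8054596 to 12024841 counted reads per d6PGCLC library and 7991437 to 11166023 per E12.5 PGC library, 3 counts were taken as the limit.

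The members and gene lists were chosen with earlier results of these data known. Named were all 10 members and, of the other lists, called genes whose log2 fold change was 1 or more in size (the 4 largest where more qualified) and the gene with the highest RPKM. Genes of like pattern were sought for the called member with the largest mean CPM, where genes averaged 10 CPM or more. The alternatives tried were DESeq2 1.42.0, a likelihood ratio test, other scalings, 2 filters on low counts, a prior count of 2, a replicate block, a loess offset (span 0.5) on exonic length, and each library left out in turn. Leaving Kyat1 out of the corepressor list was added after the data were seen. The fits were tested on simulated data. The oocyte libraries of the study were not analysed here.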

Additional observations from a re-analysis of the deposited data

Results flagged for a closer look

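Of 68 sets of 4 libraries tested for a single value far from the rest, 6 passed Dixon's critical value for 4 samples, and chance alone flags about 1 in 20 (5%) of such sets. Among the members this was Notch3, at 38.4 CPM in d6PGCLC replicate 1, where the nearest of the other d6PGCLC libraries had 22.8 CPM. In the same library Dtx4, a Deltex ubiquitin ligase, was at 16.7 CPM, with 10.2 CPM in the nearest. In E12.5 PGC replicate 2, the library with the most Hspa1a, 3 genes stood apart from their group: Kyat1 at 28.1 CPM (nearest 24.0), Snai1 at 3.16 CPM (nearest 1.01) and Dtx1 at 1.37 CPM (nearest 0.749). Gxylt2 had 0.102 CPM in d6PGCLC replicate 2, which is a single count, and 0 in the other d6PGCLC libraries.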

How the results depend on the processing

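The directions of all 10 members held in every fit with all 8 libraries, and no called value changed sign. Of the fits of members under an alternative, 172 kept their side of the threshold, 7 lost a call and 1 gained one. Hey1 lost its call with library size alone (log2 fold change 0.27, adjusted p = 0.0688), upper-quartile scaling (0.27, adjusted p = 0.0610) and the offset on exonic length (0.21, adjusted p = 0.113), which left 1 member called higher in place of 2, and Notch2 gained a call with that offset (-0.48, adjusted p = 0.0470). With each library left out in turn, Hey1 ranged from 0.24 to 0.38 and 1 to 2 members were called higher. The cause of these changes was not tested. Over the whole table, the 712 genes called higher with a log2 fold change of 2 or more became 464 with filterByExpr and 450 with a prior count of 2. The 740 lower genes became 435 with CPM above 1 in at least 3 samples, 383 with filterByExpr and 382 with a prior count of 2. Both filters tested fewer genes (11767 and 11472). Deviations of same-numbered libraries correlated at 0.25, 0.10, -0.01 and 0.03 for replicates 1 to 4. Those of differently numbered libraries correlated at -0.161 to 0.095, so replicate 1 stood above that range. The labels do not say whether a number marks a shared batch. With a replicate block, 2 members were higher and 4 lower, as without it, and Hey1 had 0.31 (adjusted p = 0.00387). Of the fits of the 24 pathway genes named by the rule, 423 kept their side and 5 lost a call (Hes3, Mfap5 and Ccnd1). Of the 8 genes named after their values were seen, which are not in this tally, Hes5 and Nrarp lost their calls in some fits and Dtx2 gained one in some, while Cdkn1a, Hes6, Maml1 and Rbpj were called and Maml3 was not called in every fit. The largest shift of the median of all genes under these settings was -0.05 on the log2 scale, with the length offset. Notch4 and Dll3, with 7 to 26 counts per library, are the members that depth limits most.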
